A study of Mus musculus with 6 samples.

Results

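The Frizzled receptors, encoded in the mouse by Fzd1 to Fzd10, were followed in whole corneas at postnatal day 3. Each of the 10 genes had 1 probe set that the array annotation pairs with its symbol alone, so 10 genes of the 19938 with such a probe set are described and all 10 are accounted for. RNA came from 3 samples of WT corneas and 3 samples of corneas from DN-Clim littermates, measured on Affymetrix Mouse Gene 1.0 ST arrays. DN-Clim mice carry a dominant-negative form of the CLIM proteins, cofactors of LIM-domain transcription regulators, driven by the keratin 14 promoter, which is active in basal epithelial cells. The transgene is therefore directed to the epithelium, while the RNA is of the whole cornea with its stroma and endothelium. The labels give no strain and do not tell if each replicate is from a single animal, so the replicate spread behind every p-value may in part be technical.

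Frizzled proteins are membrane proteins that bind Wnt ligands through an extracellular cysteine-rich domain. With the coreceptors Lrp5 and Lrp6 they pass the signal to Dishevelled proteins, which protects beta-catenin from destruction, and with other partners they act in planar cell polarity, the alignment of cells within a sheet. In the eye, Wnt signalling takes part in lens and retinal development, in the growth of retinal vessels and in the upkeep of the corneal and limbal epithelium. Wnt signalling and the stem cells of the corneal epithelium are the subject named in the study's title.

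RefSeq promoter sequences (GRCm38.p6) were matched by symbol for 6 of the 10 genes, Fzd1, Fzd4, Fzd5, Fzd7, Fzd9 and Fzd10. The 250 bases before the start site are printed for Fzd7, the 1 receptor whose WT and DN-Clim arrays did not overlap, and for its close relative Fzd1, whose DN-Clim arrays all read below the WT mean. They lie at chr1:59481897-59482146 on the plus strand and at chr5:4758217-4758466 on the minus strand. Capitals mark CG dinucleotides.
Fzd7: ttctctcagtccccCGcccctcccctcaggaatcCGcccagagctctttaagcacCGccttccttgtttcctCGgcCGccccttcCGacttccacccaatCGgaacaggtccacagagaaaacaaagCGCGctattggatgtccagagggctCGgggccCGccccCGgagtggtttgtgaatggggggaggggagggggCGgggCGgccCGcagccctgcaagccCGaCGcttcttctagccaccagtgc
Fzd1: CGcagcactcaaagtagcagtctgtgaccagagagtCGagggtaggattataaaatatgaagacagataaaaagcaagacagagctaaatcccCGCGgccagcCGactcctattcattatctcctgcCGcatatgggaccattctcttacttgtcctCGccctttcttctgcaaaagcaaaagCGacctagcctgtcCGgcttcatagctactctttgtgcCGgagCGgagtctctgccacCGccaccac
The Fzd7 stretch holds 17 CG dinucleotides and the Fzd1 stretch 12, against a median of 6 over the 32851 promoter entries cut to the same length. The other matched members held more, from 25 in Fzd4 to 42 in Fzd9. The motifs searched, on both strands of the same windows, were TAATTA, a core sequence of LIM-homeodomain factors, which reads alike in both directions, and CTTTGAT, a core sequence of the TCF and LEF factors of Wnt signalling. TAATTA occurred in 4.84% of all entries and CTTTGAT in 3.21%, and none of the 6 Frizzled windows held either, which says only that these letters are not in these windows.

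Values below are log2(intensity + 16) and differences are DN-Clim minus WT, a scale that makes changes of dim genes look smaller than they are. Array medians over all probe sets lay between 7.95 and 8.21. The arrays did not sort by genotype. Across all probe sets, which are not independent, DN-Clim replicate 3 had r of 0.936 to 0.950 with WT and of 0.921 and 0.898 with its own group. DN-Clim replicates 1 and 2 had r of 0.951 with each other and of 0.956 and 0.957 with WT replicate 3. DN-Clim replicates 1 and 2 carried a lens signal. The summed intensity of 11 lens genes was 76081 and 75529 on them, 3197 on replicate 3 and 3388 to 5462 in WT. The sum of 8 retinal genes was 5687 and 9332 on replicates 1 and 2, 2416 on replicate 3 and 1654 to 3150 in WT. The sum of 11 keratocyte genes was 21035 and 14902, against 43283 and 43433 to 48547, and that of 10 corneal epithelial genes was 26689 and 23761, against 31760 and 30317 to 34210. Replicate 3 stood apart in other lists: its summed intensity of 5 pigment cell genes was 2046, against 4853 to 7805 in WT and 9914 and 9059 on replicates 1 and 2. Its sum of 7 skeletal muscle genes was 5946, against 1961 to 2291 and 3686 and 2746. The cell type lists well below WT on all 3 DN-Clim arrays were vascular endothelium, pericytes and smooth muscle, and macrophages. Vascular endothelium summed to 2535, 2571 and 3298 on replicates 1, 2 and 3, against 4894 to 4991 in WT. Pericytes and smooth muscle summed to 2312, 1603 and 1816, against 3191 to 4892, and macrophages to 1810, 1517 and 1501, against 2227 to 2639. The keratocyte sum was also below WT on all 3, but on replicate 3 only just, at 43283 against a lowest WT sum of 43433. In every list named here each gene was above an intensity of 16 on all arrays, so no marker was at 0. In whole-tissue RNA, fewer cells of a type and less RNA per cell cannot be told apart. Each receptor is therefore given with and without DN-Clim replicate 3.

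None of the 10 Frizzled receptors passed the adjusted threshold of 0.05 (limma with Benjamini-Hochberg adjustment over 23410 probe sets, of which 0.0128% passed). Their adjusted p-values ran from 0.788 to 0.999. At an unadjusted p under 0.05 there was 1 receptor, Fzd7, where 5.94% of all probe sets had such a p and 4.49% had it as lower. Fzd7 was also the 1 receptor whose groups did not overlap, where 10.1% of all probe sets did not and 6.95% lay lower without overlap, so both shares of the family were near the background. The receptors lay on both sides of 0, with 6 lower and 4 higher in DN-Clim and a median difference of -0.09. Over all probe sets 57.2% were below 0 and the median was -0.04. Within the family the differences ran from -0.45 for Fzd7 to 0.72 for Fzd3.

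**Figure D1:**
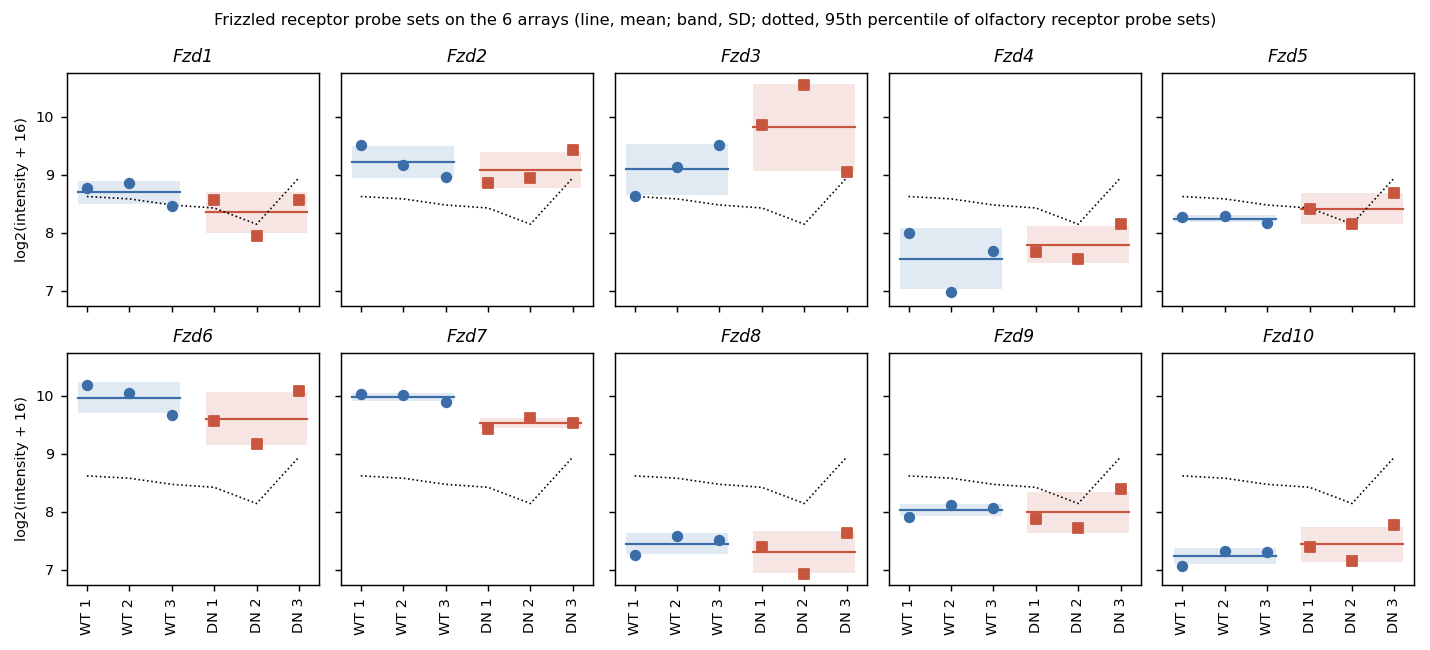
Log2(intensity + 16) of each Frizzled probe set on the 3 WT arrays (blue circles) and the 3 DN-Clim arrays (red squares, DN), with the group mean as a line and the SD as a band; the dotted line is the 95th percentile of the olfactory receptor probe sets on each array. The DN-Clim points of Fzd7, at 9.44 to 9.61, lie below its WT points at 9.90 to 10.03, and the groups of the other 9 genes overlap.

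Without DN-Clim replicate 3 none of the 10 passed either, where 2.06% of all probe sets did (limma). The smallest adjusted p was then 0.102, for Fzd3. At an unadjusted p under 0.05 there were 3 receptors, Fzd3 higher and Fzd6 and Fzd7 lower, where 20.6% of all probe sets had such a p, 7.61% as higher and 13% as lower. The median difference of the family was -0.27 in these 5 arrays, against -0.12 over all probe sets, and with DN-Clim replicate 3 alone against WT it was 0.20, against 0.06.

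**Figure D2:**
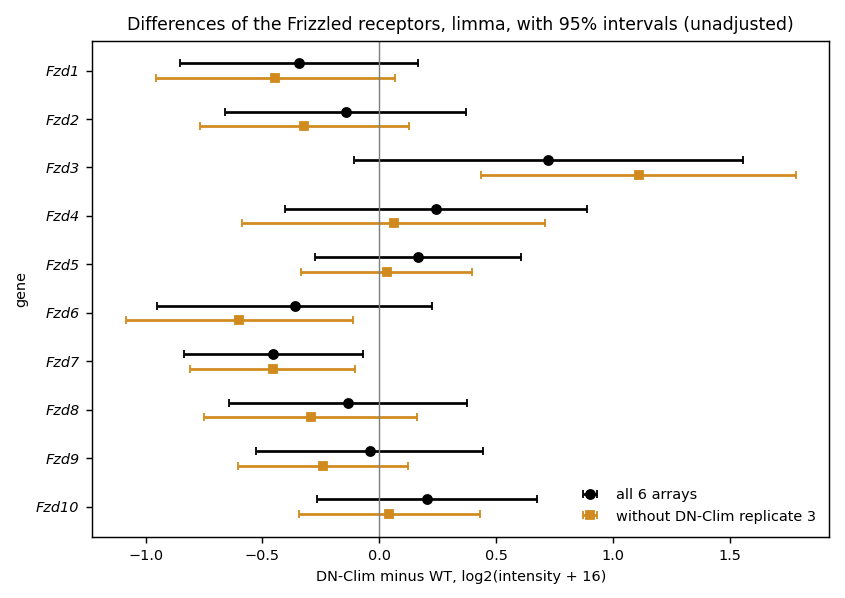
Difference DN-Clim minus WT of each Frizzled receptor (x axis, log2 scale) with its unadjusted 95% interval from limma, for all 6 arrays (black circles) and without DN-Clim replicate 3 (orange squares). With all arrays the interval of Fzd7, from -0.84 to -0.07, leaves out 0, and in the 5 arrays those of Fzd3, Fzd6 and Fzd7 do.

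Fzd1, Fzd2 and Fzd7 are close relatives that signal through beta-catenin among other routes, and Fzd7 is known as a receptor of epithelial stem cells, such as those of the intestine. Fzd7 read 10.03, 10.02 and 9.90 on WT replicates 1, 2 and 3. On DN-Clim replicates 1, 2 and 3 it read 9.44, 9.61 and 9.53. Every DN-Clim array was below every WT array, the highest DN-Clim value lying 0.29 under the lowest WT value. The value of DN-Clim replicate 3 lay between those of DN-Clim replicates 1 and 2. The vascular endothelium, pericyte and macrophage sums given above were low on the same 3 arrays, and their part in the Fzd7 values was not tested. Relative to the median of the olfactory receptor probe sets of each array, a scale chosen after seeing the data, Fzd7 stood at 2.92, 2.89 and 2.90 in WT and at 2.51, 2.98 and 2.15 in DN-Clim. On that scale the groups overlapped, DN-Clim replicate 2 was the highest array, and the difference was -0.36 with an unadjusted p of 0.162 (limma adjusted p = 1.000). The Fzd7 means were 9.98 ± 0.07 (SD, n = 3) in WT and 9.53 ± 0.09 (SD, n = 3) in DN-Clim. The Fzd7 difference of -0.45 (SE 0.170), a level 1.37-fold lower, had an unadjusted p of 0.0252 and did not pass (limma adjusted p = 0.788). Without DN-Clim replicate 3 it was -0.46 (SE 0.154, limma adjusted p = 0.167), and -0.44 when the mean lens signal was a covariate (limma adjusted p = 0.290). DN-Clim replicate 3 alone was 0.45 below the WT mean, a single sample whose spread has to be taken from WT. The lens signal was high on DN-Clim replicates 1 and 2 only. The fit with the lens covariate therefore also rests largely on replicate 3, and the 2 values are not separate checks. In these last 2 fits 0.0256% and 0.337% of all probe sets passed, and no receptor did. With arrays weighted by their estimated quality Fzd7 was the 1 receptor that passed, at -0.53 (limma adjusted p = 0.0255), where 8.8% of all probe sets passed. Those weights were 3.06, 0.385 and 0.199 for DN-Clim replicates 1, 2 and 3 and between 1.13 and 2.89 for the WT arrays. The weighted DN-Clim mean thus rests mostly on replicate 1, 1 of the 2 arrays with the lens signal.

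Fzd1 read 8.77, 8.85 and 8.46 on WT replicates 1, 2 and 3. It read 8.56, 7.94 and 8.55 on DN-Clim replicates 1, 2 and 3. The groups overlapped through WT replicate 3, and DN-Clim replicate 2 stood lowest. The Fzd1 difference was -0.34 (SE 0.226, 95% interval -0.85 to 0.17, limma adjusted p = 0.998), and without DN-Clim replicate 3 it was -0.44 (limma adjusted p = 0.289). Without DN-Clim replicate 2 it was -0.14.

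Fzd2, a receptor of Wnt5a among other ligands, read 9.52, 9.17 and 8.97 on WT replicates 1, 2 and 3. On DN-Clim replicates 1, 2 and 3 it read 8.85, 8.94 and 9.43. The DN-Clim arrays with the lens signal were just below the lowest WT array, and DN-Clim replicate 3 was inside the WT range. The Fzd2 difference was -0.14 (SE 0.229, 95% interval -0.66 to 0.37), and it was -0.32 without DN-Clim replicate 3 and 0.21 with that replicate alone.

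Fzd3 and Fzd6 are the receptors best known for planar cell polarity: Fzd3 guides axons in the nervous system and Fzd6 sets the direction of hairs in the skin. They differed in opposite directions. Fzd3 had the widest range of the 10, at 1.91, and read 8.63, 9.13 and 9.51 on WT replicates 1, 2 and 3. It read 9.86, 10.54 and 9.04 on DN-Clim replicates 1, 2 and 3. The arrays with the lens and retinal signal were the highest, and DN-Clim replicate 3 was close to the WT mean of 9.09. The Fzd3 difference of 0.72 (SE 0.370, 95% interval -0.11 to 1.56) did not pass (limma adjusted p = 0.898). It was 1.11 (SE 0.292) without DN-Clim replicate 3, with an unadjusted p of 0.00517 and a limma adjusted p of 0.102. Without DN-Clim replicate 2 it was 0.36. With replicate 3 alone the Fzd3 difference was -0.05, and with the lens signal as a covariate it was -0.01.

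Fzd6 read 10.19, 10.05 and 9.67 on WT replicates 1, 2 and 3. It read 9.58, 9.16 and 10.08 on DN-Clim replicates 1, 2 and 3. DN-Clim replicates 1 and 2 were below all WT arrays and replicate 3 was within the WT range, so that the groups overlapped. The Fzd6 difference was -0.36 (SE 0.261, 95% interval -0.95 to 0.23, limma adjusted p = 0.999), and -0.60 (SE 0.212, limma adjusted p = 0.179) without DN-Clim replicate 3. Without DN-Clim replicate 2 it was -0.14. With replicate 3 alone it was 0.11, and with the lens covariate 0.09. The low Fzd6 arrays were those with the low keratocyte and epithelial sums given above, whose part in the values was not tested.

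**Figure D3:**
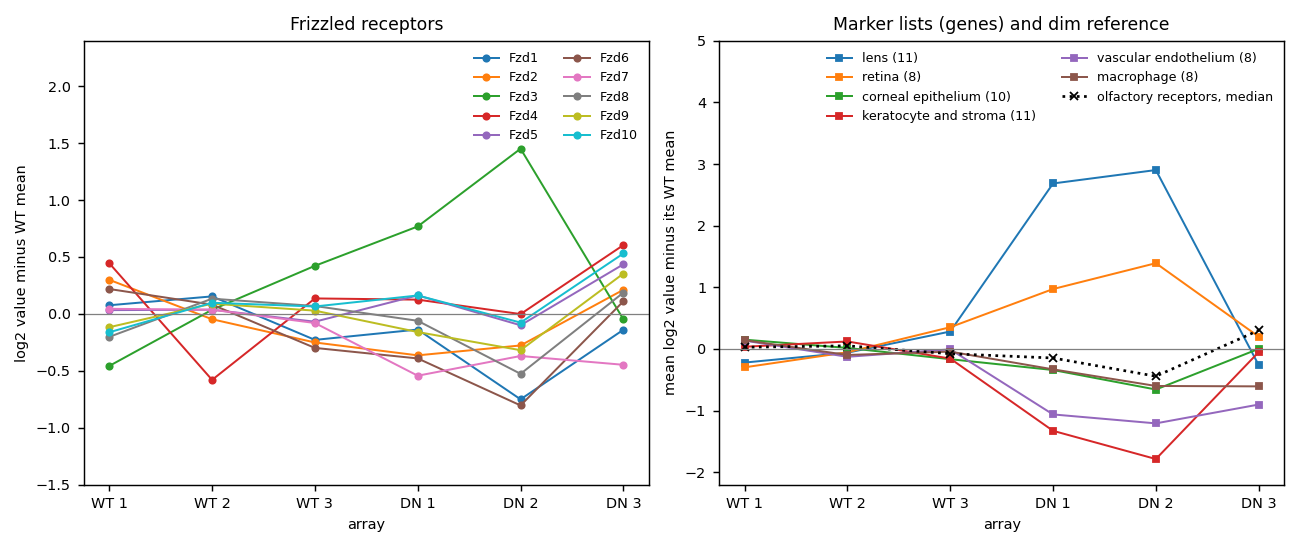
Left, log2 value of each Frizzled receptor on each array minus its mean over the WT arrays; right, the mean log2 value of 6 marker lists (number of genes in brackets) and the median of the olfactory receptor probe sets, minus the WT mean. Fzd3 stands at 0.77 and 1.45 on DN-Clim replicates 1 and 2 (DN), where the lens and retina lists are high, and at -0.05 on replicate 3, while Fzd7 is low on all 3; lines join the values of a gene or list and mark no order.

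The remaining 5 receptors, Fzd4, Fzd5, Fzd8, Fzd9 and Fzd10, lay in the range of olfactory receptor probe sets. On all 6 arrays each lay below the 95th percentile of 1035 probe sets of olfactory receptors, a class with little expression outside the nose, and that percentile ran from 8.14 to 8.95. Fzd2, Fzd3, Fzd6 and Fzd7 lay above it on all 6 arrays and Fzd1 on 3. Brightness also depends on the probes, so this marks probe sets within the olfactory range and does not rank the genes. That range reaches the median of the probe sets tested, which ran from 8.13 to 8.37 over the arrays. Fzd5, at 8.14 to 8.68, was near or above that median.

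Fzd4, the receptor of Norrin, a ligand needed for retinal vessels, read 7.99, 6.97 and 7.68 on WT replicates 1, 2 and 3. It read 7.67, 7.54 and 8.15 on DN-Clim replicates 1, 2 and 3. The spread of Fzd4 within WT, at 1.03, was wider than its group difference of 0.24 (SE 0.286, 95% interval -0.40 to 0.89). Without WT replicate 2, the lowest array, the Fzd4 difference was -0.05.

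Fzd5 and Fzd8 form a pair of close relatives, and Fzd5 is known from the early eye and retina. Fzd5 read 8.28, 8.28 and 8.17 on WT replicates 1, 2 and 3 and 8.40, 8.14 and 8.68 on DN-Clim replicates 1, 2 and 3. For Fzd8 the WT values were 7.25, 7.58 and 7.52, and the DN-Clim values 7.39, 6.92 and 7.64. In both genes the DN-Clim arrays lay on both sides of the WT arrays, with replicate 2 lowest and replicate 3 highest. The differences were 0.17 (95% interval -0.27 to 0.61) for Fzd5 and -0.13 (95% interval -0.64 to 0.37) for Fzd8.

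Fzd9 and Fzd10 are related to Fzd4 and are best known from the developing nervous system and limbs. Fzd9 read 7.92, 8.13 and 8.06 on WT replicates 1, 2 and 3 and 7.88, 7.72 and 8.39 on DN-Clim replicates 1, 2 and 3. For Fzd10 the WT values were 7.07, 7.33 and 7.30, and the DN-Clim values 7.40, 7.16 and 7.77. For both genes DN-Clim replicate 3 was the highest array, and the groups overlapped. The differences were -0.04 (95% interval -0.53 to 0.45) for Fzd9 and 0.21 (95% interval -0.27 to 0.68) for Fzd10.

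Without DN-Clim replicate 3 the differences were 0.06 for Fzd4, 0.03 for Fzd5, -0.29 for Fzd8, -0.24 for Fzd9 and 0.04 for Fzd10, and none of these 5 passed with or without it (limma adjusted p from 0.393 to 0.918 without it). All 5 of these receptors had their highest value on DN-Clim replicate 3, and 34.6% of all probe sets did. Fzd5, Fzd8 and Fzd9 also had their lowest value on DN-Clim replicate 2, and 22.4% of all probe sets had both. The median of the olfactory receptor probe sets was likewise highest on DN-Clim replicate 3, at 7.38, and lowest on replicate 2, at 6.64, with 7.001 to 7.129 in WT. Relative to that median, a scale chosen after seeing the data, Fzd5 stood at 1.30 to 1.51 on the DN-Clim arrays and 1.15 to 1.17 in WT. Fzd10 stood at 0.39 to 0.52 and -0.03 to 0.30, and the groups of Fzd4, Fzd8 and Fzd9 overlapped. The differences of Fzd5 and Fzd10 were then 0.26 and 0.30 (limma unadjusted p = 0.118 and 0.103), and neither passed. How many of all probe sets separate on that scale was not counted. On that scale no value of DN-Clim replicate 3 was the highest of the 6 for any of the 5 genes.

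Among the 45 pairs of receptors, the closest profiles over the 6 arrays, each centred on its own mean, were those of Fzd5 and Fzd10, with a root mean square difference of 0.106, and of Fzd8 and Fzd9, at 0.115. The pair farthest apart was Fzd3 and Fzd6, at 0.972.

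The genes nearest in pattern to the 3 receptors with the widest range, Fzd3, Fzd4 and Fzd6, were sought by the same measure among 15853 other genes over the 6 arrays. Nearest to Fzd3 were Tox, a chromatin factor of the HMG-box class, at 0.0777, Cnga1, a subunit of the cyclic nucleotide-gated channel of rods, at 0.0845, and Cdhr1, a cadherin of photoreceptors, at 0.0880. Cnga1 read 6.57 to 7.21 in WT and 7.72, 8.50 and 6.86 on DN-Clim replicates 1, 2 and 3, high on the same arrays as Fzd3. Nearest to Fzd6 were Dlk1, a Notch-related membrane protein, at 0.0326, Utf1 at 0.0405 and Hoxd1 at 0.0446. Nearest to Fzd4 were Cnst, Kcne1 and Serpinb1c, farther away at 0.127 to 0.171.

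**Figure D4:**
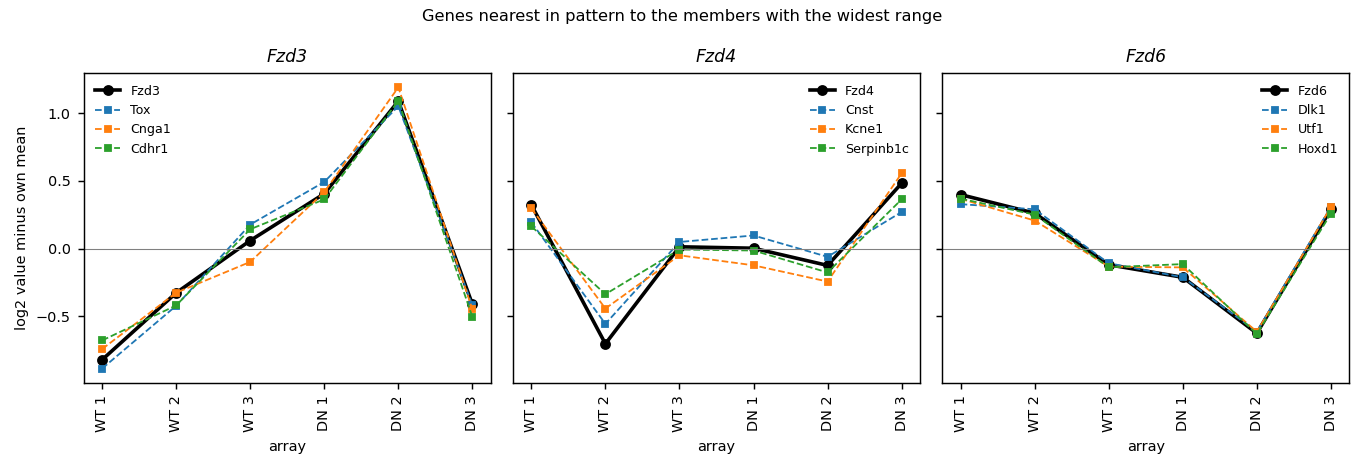
Log2 values centred on each gene's mean over the 6 arrays for Fzd3, Fzd4 and Fzd6 (black) and the 3 genes nearest to each (coloured, dashed), by array; lines mark no order. Tox, Cnga1 and Cdhr1 rank the arrays much as Fzd3 does, with DN-Clim replicate 2 (DN 2) highest, and the genes beside Fzd4 share its low WT replicate 2.

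The partners of the receptors were read from lists of the pathway. With all 6 arrays no gene of these lists passed, as for the receptors (limma). An unadjusted p under 0.05 was seen for 1 of 19 ligands, 2 of 12 secreted inhibitors, 1 of 3 other proteins with the Frizzled-like domain, 3 of 12 targets and 1 of 13 LIM partners, and for no gene of the other lists, where 5.94% of all probe sets had such a p. Of 19 Wnt ligands, 15 were below 0, with a median of -0.12, where 57.2% of all probe sets were below 0 and their median was -0.04. The 1 with the low p was Wnt5a, a ligand of polarity and migration signals, which read 10.09, 10.26 and 9.77 on WT replicates 1, 2 and 3. It read 8.34, 8.43 and 9.84 on DN-Clim replicates 1, 2 and 3, so that replicate 3 was within the WT range. Wnt5a differed by -1.17 (limma adjusted p = 0.700), and without DN-Clim replicate 3 it fell by 1.66 on the log2 scale (limma adjusted p = 0.00734), the 1 ligand of 19 that passed there, where 1.52% of all probe sets passed as lower.

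Of 7 coreceptors none passed in either fit (limma). Lrp6, which works beside Frizzled in beta-catenin signalling, differed by -0.25 (SE 0.179) and the kinase-like Wnt receptor Ryk by -0.26 (SE 0.196). Without DN-Clim replicate 3 they stood at -0.25 and -0.35. The Lrp6 groups did not overlap, by a gap of 0.04. Of the other pathway genes named here, Reck, Rspo1, Sfrp2 and Prickle1, also lower, and Apc and Btrc, higher, did not overlap either. Among genes not named, 3 of the 19 Wnt ligands and 1 of the 12 beta-catenin targets lay lower without overlap. In the higher direction 1 of the 13 LIM genes, also not named, did not overlap. Of all probe sets 6.95% lay lower without overlap and 10.1% did not overlap in either direction. Of 5 partners of Fzd4, none passed in either fit (limma). Tspan12, the tetraspanin that boosts Norrin signalling through Fzd4, differed by -0.46 (SE 0.238) and Reck, which recruits Wnt7 ligands to Frizzled, by -0.37 (SE 0.200), and without DN-Clim replicate 3 they stood at -0.58 and -0.40. Of 9 genes of receptor turnover, the R-spondins and the ligases they hold back, none passed in either fit (limma). Rspo1 differed by -0.36 (SE 0.205), and by -0.40 without DN-Clim replicate 3. Rspo3 differed by -0.28 (SE 0.300), by -0.66 without DN-Clim replicate 3 (limma adjusted p = 0.0715), and stood at 0.48 on that replicate alone.

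Among secreted inhibitors, 12 in all, were proteins that carry a Frizzled-like cysteine-rich domain and capture Wnts. None passed with all arrays, and 2 of 12 passed as lower without DN-Clim replicate 3 (limma), where 1.52% of all probe sets did. Sfrp2, which has that domain, read 11.99, 11.69 and 11.44 on WT replicates 1, 2 and 3. It read 10.73, 10.38 and 10.71 on DN-Clim replicates 1, 2 and 3, below WT on every array, the same arrays on which the vascular endothelium, pericyte and macrophage sums were low, and their part in the Sfrp2 values was not tested. The Sfrp2 difference was -1.10 (SE 0.208, limma adjusted p = 0.404) with all arrays, and without DN-Clim replicate 3 it fell by 1.15 on the log2 scale (limma adjusted p = 0.0361). Dkk2, which acts on Lrp5 and Lrp6, differed by -1.30 (limma adjusted p = 0.788) and fell by 1.96 without that replicate, on which its level was 0.02 above the WT mean. Of 3 other proteins with the domain, Cpz, a carboxypeptidase that binds Wnt, was the 1 that passed there, at -1.84 (limma adjusted p = 0.0082), against -1.33 with all arrays.

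Inside the cell, 0 of 11 planar polarity genes and 0 of 12 transducers passed in either fit (limma). Prickle1 and Vangl1, partners of Fzd3 and Fzd6 in polarity, both differed by -0.43 (SE 0.198 and 0.209), and by -0.53 and -0.55 without DN-Clim replicate 3. Of the transducers 3 were below 0 and the median was 0.09. Apc, the scaffold of the beta-catenin destruction complex, differed by 0.39 (SE 0.192) and Btrc, its ubiquitin ligase subunit, by 0.29 (SE 0.170), and without DN-Clim replicate 3 they stood at 0.45 and 0.33. Of 12 beta-catenin targets 9 were below 0, with a median of -0.32, beside the 57.2% and the median of -0.04 of all probe sets. Without DN-Clim replicate 3 there were 2 that passed, where 1.52% of all probe sets passed as lower, Twist1 at -1.73 and Apcdd1 at -1.40 (limma adjusted p = 0.0152 and 0.0319). With all arrays they stood at -1.17 and -0.98 and did not pass. Of 13 CLIM cofactors and LIM partners 1 passed there, the LIM-homeodomain gene Lhx2, which rose by 1.53 (limma adjusted p = 0.0254), where 0.547% of all probe sets passed as higher, against 1.04 with all arrays, and its value on DN-Clim replicate 3 was 0.05 above the WT mean. The calls of these lists without DN-Clim replicate 3 rest on the 2 samples with the lens signal. In the same fit 9 of 11 keratocyte genes passed as lower, with a list median of -1.53. On DN-Clim replicate 3 alone that median was -0.02. The part of the keratocyte signal in the values of Wnt5a, Dkk2, Cpz, Twist1 and the other called genes was not tested.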

How the data were processed

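Per the labels' protocols, RNA of dissected corneas was amplified with a NuGEN kit. The authors deposited linear intensities of probe sets, made with Affymetrix Expression Console 1.1 and PLIER per the submitters' processing notes. How they were background-corrected and normalized is not stated there. Intensities were taken as log2(intensity + 16) with no further normalization, since array medians differed by at most 0.267. The number of arrays limits the precision. Of 35557 probe sets, the 23410 paired with at least 1 gene entered lmFit and eBayes of limma 3.58.1 (R 4.3.3) for the contrast of 3 DN-Clim with 3 WT samples. The threshold was 0.05 after Benjamini-Hochberg adjustment. The fit was tested on simulated data with 200 changed probe sets and, for each probe set, the same noise on every array. It recovered 50% of log2 changes of 1 and 100% of those of 2 and 3, with 15 false calls. The real arrays are less even than that. The largest Frizzled difference, 0.72, was smaller than 1, so not passing does not show that a receptor was unchanged.

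The members and gene lists were chosen with earlier results of these data known. All 10 receptors were named. Of each pathway list, genes past the threshold with all arrays or without DN-Clim replicate 3 were named (at most 4), otherwise the 2 with the smallest p. Of the markers, 6 were unmatched, as were Mfrp and Tcf7. An opposite-strand transcript, Fzd10os, has its own probe set and was not counted. Alternatives were offsets, normalizations, a filter, all probe sets, priors, weights, the replicate number, a lens covariate and arrays left out.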

Additional observations from a re-analysis of the deposited data

How the results depend on the processing

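No receptor passed the threshold in 17 of the 18 alternatives to the settings of the report. The exception was array weights, under which 1 did, Fzd7 at -0.53. The default estimate of these weights did not converge, and limma's gene-by-gene estimate was used. Of 180 comparisons of a receptor with an alternative, 160 kept direction and side of the threshold and 19 turned direction, 0 of them past the threshold. Fzd1, Fzd5, Fzd7 and Fzd10 kept their direction in all 18. With the lens covariate the differences were 0.19 for Fzd2, -0.014 for Fzd3, 0.090 for Fzd6, 0.14 for Fzd8 and 0.29 for Fzd9, and the median of the family was 0.17. With DN-Clim replicate 3 alone they were 0.21, -0.048, 0.11, 0.19 and 0.35, with a median of 0.20. The lens covariate was high on DN-Clim replicates 1 and 2 only, so both fits rest largely on replicate 3 and are not separate checks. Fzd9 stood at 0.045 with quantile normalization, 0.029 with median centring and 0.054 with centring on olfactory receptor probe sets, which was chosen after seeing the data. Leaving out 1 array at a time, Fzd2 ran from -0.32 to 0.0058 (above 0 without WT replicate 1), Fzd4 from -0.048 to 0.46 (below 0 without WT replicate 2), Fzd8 from -0.29 to 0.063 (above 0 without DN-Clim replicate 2) and Fzd9 from -0.24 to 0.10. The others kept their side of 0 and ran from -0.46 to -0.14 (Fzd1), 0.36 to 1.11 (Fzd3), 0.031 to 0.30 (Fzd5), -0.60 to -0.14 (Fzd6), -0.50 to -0.41 (Fzd7) and 0.042 to 0.35 (Fzd10), and the family median from -0.27 to 0.08.

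Over all probe sets, 3 passed with all arrays. The count was 1 with quantile normalization, 5 with the trended robust prior, 6 with the lens covariate, 79 with DN-Clim replicate 3 alone, 2059 with array weights, and 0 for the whole table and for centring on olfactory receptor probe sets. Leaving out 1 array gave 0 to 483, the latter without DN-Clim replicate 3 and 0 without any other array. Of 306 comparisons of 17 named pathway genes, 287 were kept, 16 newly passed and 3 turned: Rspo3 to 0.37 with the lens covariate and 0.48 with DN-Clim replicate 3 alone, and Dkk2 to 0.020 with the latter. The causes were not tested.

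The deviations of same-numbered WT and DN-Clim samples had r of 0.02, -0.21 and -0.44 for replicates 1, 2 and 3 across probe sets. For differently numbered samples r ran from -0.28 (WT replicate 1 with DN-Clim replicate 2) to 0.45 (WT replicate 3 with DN-Clim replicate 2). Whether same-numbered samples share a litter or a batch was not tested. With the replicate number as a block, 9 probe sets and 0 receptors passed, and the unadjusted p of Fzd7 was 0.0837. Every receptor has a single probe set, so averaging several probe sets was not run. With 3 samples a group, the narrowest unadjusted 95% interval was that of Fzd7, from -0.84 to -0.07. The widest was that of Fzd3, from -0.11 to 1.56. All intervals but that of Fzd7 held 0, so the differences of those receptors were not resolved from 0. The Fzd7 interval is unadjusted, and its difference did not pass after adjustment (limma adjusted p = 0.788), so it was not resolved either.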
